A study of Mus musculus with 16 samples.

Results

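The comparison described here sets the unconventional mouse CD8 T cell clone against the conventional one while both were stimulated through CD3 in the presence of cyclosporine A. It rests on 8 of the 16 arrays of the series, 4 per clone, chosen by their labelled clone and treatment and not by any measured value. By its labels the conventional clone is sensitive to cyclosporine and the unconventional clone resistant, and both are CD8 T cells. Every group was stimulated with the immobilized anti-CD3 antibody in RPMI medium to which no recombinant cytokine was added, and the 2 groups compared received cyclosporine A at 1 ug/ml as well. The other 8 arrays hold the same clones with anti-CD3 alone and are used only to ask whether a clone difference changed with the drug. Before stimulation the cells had been grown with IL-1a, IL-6, IL-7, IL-15, TNF-a and interferons, a history that all groups share. Each arm is 1 clone, so the difference between conventional and unconventional CD8 T cells and the difference between any pair of individual clones cannot be told apart here. The labels do not state whether the 4 replicates of a group were grown independently, and the p-values therefore describe only the spread among these samples, which may be technical.

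In a CD8 T cell, engagement of the receptor complex that contains CD3 activates the kinases Lck and ZAP-70, which assemble a signalling platform on the adaptors LAT and SLP-76. From there calcium entry switches on calcineurin, a phosphatase that lets NFAT proteins enter the nucleus, while parallel branches feed AP-1 and NF-kB, and together these factors drive cytokine genes and entry into division. Cyclosporine A acts in the cell only after binding a cyclophilin, and the drug bound to its cyclophilin occupies calcineurin, so that NFAT stays in the cytoplasm.

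Values are log2 expression values, each difference is the mean of the unconventional minus the mean of the conventional clone in log2 units, and a difference of 1 is a 2-fold one. A gene was called when its limma p-value, adjusted by Benjamini-Hochberg over 19938 genes, was under 0.05. On the 8 arrays the median probe set lay between 5.18 and 5.35. Over all probe sets, arrays of 1 clone correlated at 0.9947 to 0.9979 and arrays of different clones at 0.9601 to 0.9635. Values of about 4 lie near the bottom of a scale that ran from 2.08 to 14.55, where RMA compresses differences.

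The clones differed in much of the transcriptome. Of the 19938 genes, 8821 were called (44.2%), 4240 higher (21.3%) and 4581 lower (23%) in the unconventional clone. At least a 2-fold difference was reached by 1961 of them (9.84%), 1110 higher (5.57%) and 851 lower (4.27%), and at least a 16-fold one by 61 higher (0.306%) and 51 lower (0.256%) genes. The values of the 4 arrays of each clone did not overlap for 8423 genes (42.2%). Counts of gene lists below are to be read against these shares.

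Several sequences are printed to describe genes of 2 of the patterns below, and not to explain their differences. The first are microRNAs of the Mir17 cluster, which is known for promoting lymphocyte proliferation. It is 1 primary transcript from which several microRNAs, not all with the same seed, are cut. All 5 of its members measured under a single symbol were higher in the unconventional clone. Mature sequences are from RefSeq on GRCm38.p6, 5′ to 3′, and the capitals mark the seed, bases 2 to 8, by which a microRNA pairs with its targets. The arm by which each family is usually known is shown.
mmu-miR-17-5p (chr14:115043684-115043706, plus strand): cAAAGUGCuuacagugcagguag
mmu-miR-20a-5p (chr14:115044183-115044205, plus strand): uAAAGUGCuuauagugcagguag
mmu-miR-18a-5p (chr14:115043867-115043889, plus strand): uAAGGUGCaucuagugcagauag
mmu-miR-19a-3p (chr14:115044048-115044070, plus strand): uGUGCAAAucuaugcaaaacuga
mmu-miR-19b-3p (chr14:115044358-115044380, plus strand): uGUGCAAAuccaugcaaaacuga
mmu-miR-31-5p (chr4:88910614-88910635, minus strand): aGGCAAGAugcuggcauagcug
mmu-miR-146a-5p (chr11:43374435-43374456, minus strand): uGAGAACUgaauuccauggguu
The first pair shares the seed AAAGUGC, miR-18a-5p has AAGGUGC in its place, and miR-19a-3p and miR-19b-3p share GUGCAAA. The last 2 are shown as the microRNA genes outside that cluster with the furthest difference in each direction.

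In the Mir17 cluster, Mir19b-1 read 5.85, 6.16, 5.95 and 6.44 in the unconventional clone and 4.48, 4.57, 4.11 and 4.60 in the conventional clone. Its difference was 1.66 ± 0.16 (SE, n = 4 per clone, adjusted p = 2.83e-08). Mir17 read 5.47, 5.44, 5.70 and 6.01 against 4.21, 4.65, 4.41 and 3.78, a difference of 1.39 ± 0.19. In both genes every array of the unconventional clone lay above every array of the conventional clone, whose values were near the bottom of the scale. Mir18 (1.43), Mir19a (1.53) and Mir20a (1.44) differed alike and were called. The host transcript of the cluster, Mir17hg, was 0.94 higher. With anti-CD3 alone the same 5 genes differed by 1.36 to 1.71, and the change with the drug passed the limma test for none of the 5, adjusted or not. Mir31 was 1.5 higher with the drug and 3.00 higher without it. Mir146, a microRNA gene of the feedback on NF-kB, was 1.47 lower. Among 296 microRNA genes measured, of which 271 matched the sequence table, 12 were called higher and 56 lower, with a median difference of -0.11. Over all genes 21.3% were called higher and 23% lower, with a median of -0.083. The microRNA genes other than those of the cluster and Mir31 were named after their values were seen, and whether these probe sets report the primary, the hairpin or the mature RNA is not given in the sources used here.

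With receptor segments and provisional symbols left out, the largest positive and negative differences named were those of Adh1 and Itga1. Adh1, an alcohol dehydrogenase, read 12.74, 12.70, 12.51 and 12.45 in the unconventional clone and 4.61, 4.41, 4.27 and 4.76 in the conventional clone. Its difference of 8.08 ± 0.14 (SE, n = 4 per clone, adjusted p = 1.05e-19) was the largest positive one among genes eligible for naming, receptor segments and provisional symbols being left out. Itga1, the integrin alpha chain of VLA-1 that binds collagen, read 3.74, 4.29, 3.82 and 3.60 against 12.13, 12.41, 12.19 and 12.11, a difference of -8.35 ± 0.12 (adjusted p = 8.38e-21). Each of these genes was thus at the bottom of the scale on all 4 arrays of one clone and high on all 4 of the other.

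Others among the 20 largest on the higher side of the unconventional clone were Scin, an actin-severing protein (7.59), Scd1, the stearoyl-CoA desaturase (6.69), Hpgds, a prostaglandin D synthase (6.43), Pla2g4a, the phospholipase that frees arachidonic acid (5.84), St3gal6, a sialyltransferase (5.63), Foxp2, a forkhead factor (5.51), Itgb7, the integrin beta 7 chain (5.18), and Ahr, the aryl hydrocarbon receptor (5.13). Brinp3 (7.07), Naalad2 (5.56), Spint2, a serine protease inhibitor (5.41), Alkbh3, a DNA and RNA demethylase (5.31), Ppbp, a platelet chemokine (5.27), and Spats2 (5.22) were also among them. Ppbp was the most variable of these, with 8.48 to 10.15 in the unconventional clone and 3.86 to 4.87 in the conventional clone.

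At the other end, Penk, the precursor of enkephalins, differed by -7.47, from 4.65 ± 0.21 (SD, n = 4) in the unconventional clone to 12.12 ± 0.22 in the conventional clone. Further members were Car5b, a mitochondrial carbonic anhydrase (-7.78), Fgl2, a secreted immunoregulatory protein (-7.25), Sema3d, a semaphorin (-6.77), Neurl3, a ubiquitin ligase (-6.22), Gem, a small GTPase (-5.95), Ifitm3, an antiviral membrane protein (-5.90), Crmp1 (-5.89), Pfpl, a perforin-like gene (-5.83), Taf9b, a transcription factor subunit (-5.79), Adgrg7 (-5.62) and Ly6a2 (-5.09). For Ifitm3 the unconventional arrays were spread, at 4.32, 5.72, 6.38 and 5.77, whereas the conventional ones lay between 11.33 and 11.65. The plot of the 40 genes with the largest differences, receptor segments and provisional symbols left out, gives their value on each array. A lack of overlap between the clones was a condition for entering it.

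**Figure D1:**
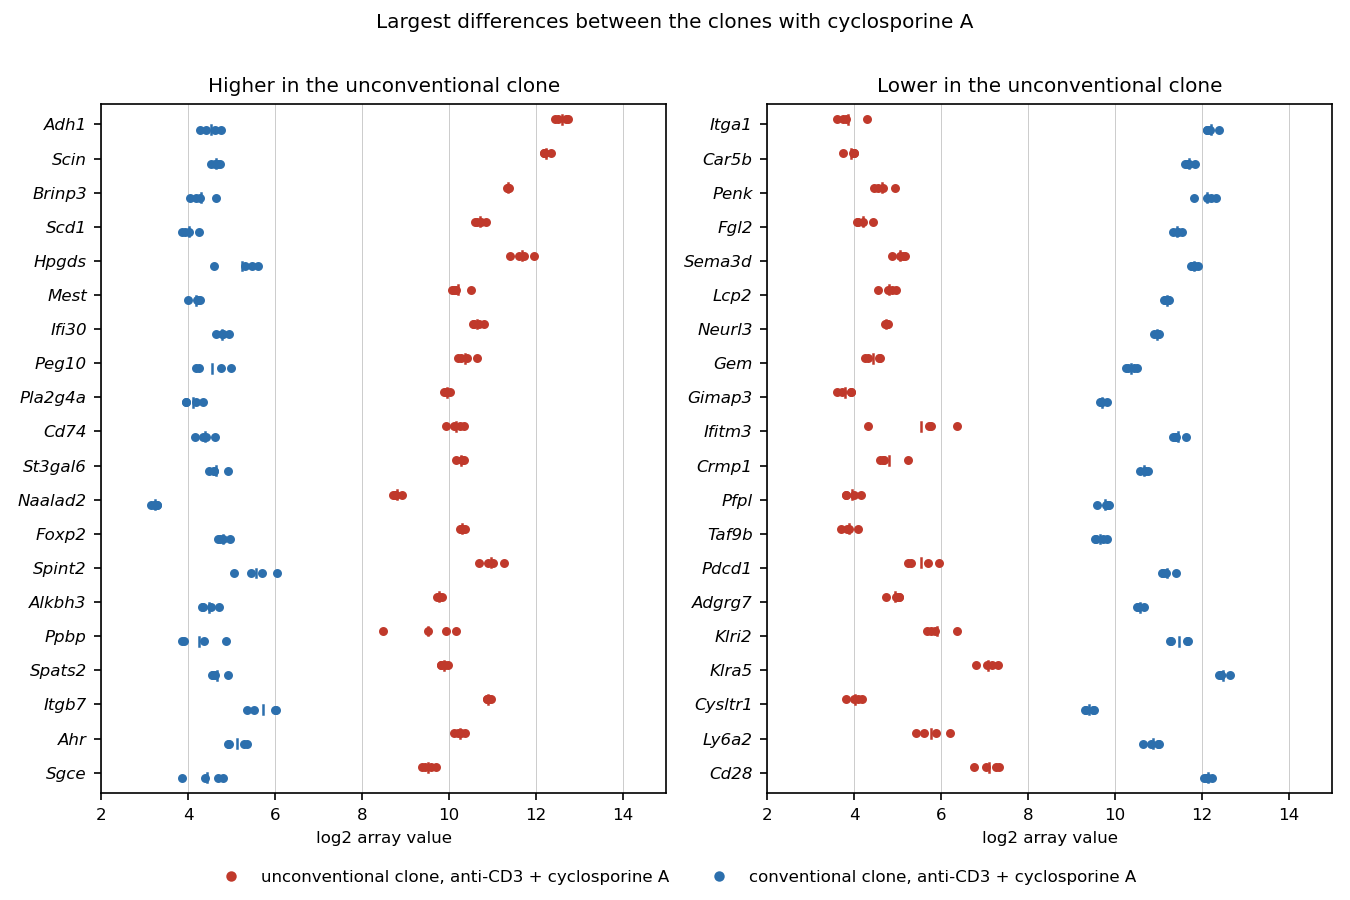
Log2 expression values on the horizontal axis for the 20 genes with the largest positive and the 20 with the largest negative difference, 1 point per array, 4 arrays of each clone under anti-CD3 with cyclosporine A. Genes were chosen with no overlap between the clones, receptor segments and provisional symbols being left out. The clone means lie about 5 to 8 log2 units apart.

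The labelled cell type was checked on T cell genes. Cd8a, the alpha chain of the CD8 co-receptor, read 8.73, 8.61, 8.52 and 8.39 in the unconventional clone and 11.92, 12.05, 11.91 and 11.81 in the conventional clone, a difference of -3.36 ± 0.08 (SE, adjusted p = 2.03e-17). Cd8b1, the beta chain, differed by -2.04 around means of 10.26 and 12.31. Both chains were well above the array median in both clones, and all arrays of the unconventional clone were the lower ones. Cd3e, a chain of the receptor complex, stood at 11.09 ± 0.07 (SD, n = 4) and 10.89 ± 0.06 and was not called (adjusted p = 0.1237). Cd4 lay near the bottom of the scale in both, at 4.32 and 4.25. The receptor segment Trbv1 differed by -8.77, with 13.51 to 13.59 on the conventional arrays and 4.63 to 4.94 on the unconventional ones. It was the only one of 22 measured receptor and immunoglobulin segments that was called at 2-fold or more, and 4 were called at all.

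Of the 20 measured T cell identity genes, 2 were called higher and 8 lower, and the median difference was -0.19 against -0.083 over all genes. Cd28, the receptor for the second signal of activation, differed by -5.04, and Sit1, an inhibitory adaptor, by -4.57. Cd7, a membrane protein of T and NK cells, was 4.83 higher. Cd247, the zeta chain that carries most signalling motifs of the complex, was 1.06 lower. Cell numbers and RNA per cell cannot be told apart from levels in bulk samples such as these. Markers of other cell types were low: 10 and 11 of 11 B cell markers, 20 and 19 of 25 macrophage and dendritic cell markers, 20 and 21 of 21 erythroid, granulocyte and mast cell markers, and 9 and 9 of 13 markers of other T cells had a mean under 5 in the unconventional and the conventional clone. Exceptions called at 2-fold or more were Tlr4, a receptor for bacterial lipopolysaccharide (-4.97), and Batf3, a factor of dendritic cells and T cells (2.33), Tlr2 (1.17) and Cd68 (1.08) among the macrophage list, Ebf1, at 3.80 and 4.93, among the B cell list, and Ppbp among the granulocyte list. Of the 13 markers of other T cells 2 were called higher and 2 lower, at 2-fold or more Ikzf2, or Helios, of regulatory T cells (1.11), and Mr1, which presents antigen to MAIT cells (-1.11). Of 23 epithelial, fibroblast and endothelial markers, 13 in either clone had a mean under 5, and Cdh1, or E-cadherin (4.17), and Pecam1, an adhesion molecule also of leukocytes (3.37), were called at 2-fold.

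Signalling from the T cell receptor held more genes that were lower than higher in the unconventional clone. Of 57 measured members, 29 were called lower in the unconventional clone and 12 higher, 17 and 7 of them at 2-fold or more, with a median of -0.28. Lcp2, which encodes the adaptor SLP-76, read 4.79, 4.54, 4.88 and 4.96 in the unconventional clone and 11.14, 11.26, 11.23 and 11.15 in the conventional clone, a difference of -6.40 ± 0.13 (SE, adjusted p = 1.07e-18). The unconventional arrays lay below the array median for this gene. Inhibitors of the pathway were lower too: Ubash3b (-4.82) and Ubash3a (-4.72), phosphatases of ZAP-70 signalling, and Dok2 (-3.07), an inhibitory adaptor. Skap1, an adaptor that couples the receptor to integrins, was 3.47 lower. The named members thus hold both activating adaptors and inhibitors.

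Downstream, calcium, calcineurin and NFAT genes had no common direction, with 18 of 54 called higher and 20 lower and 5 and 2 of these at 2-fold or more. The catalytic subunits of calcineurin were higher in the unconventional clone. Ppp3ca read 10.10, 10.03, 10.24 and 9.92 against 9.46, 9.63, 9.36 and 9.58 (0.57 ± 0.09, adjusted p = 2.44e-05), and Ppp3cb differed by 0.77 ± 0.07. Their arrays did not overlap. Nfatc1 and Nfatc2 were lower, with differences of -0.66, means 5.78 and 6.44, and of -1.26, means 7.29 and 8.55. Rcan1, an inhibitor of calcineurin that NFAT itself induces, differed by -0.81, at 5.30 against 6.11. Camk2d, a calmodulin-dependent kinase (3.30), Orai1, the pore of the store-operated calcium channel (1.21), and Stim2, a calcium sensor of the endoplasmic reticulum (1.28), were higher, and Itpr2, a calcium release channel, was lower (-1.83).

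The main binding protein of the drug did not pass the test. Ppia, which encodes cyclophilin A, read 13.72, 13.68, 13.72 and 13.70 in the unconventional clone and 13.58, 13.68, 13.58 and 13.61 in the conventional clone, a difference of 0.09 ± 0.06 (SE, adjusted p = 0.1881). The clones met at 13.68, and the other probe sets of the gene gave -0.01 to 0.10. Of 27 cyclophilins and FK506-binding proteins, 10 were called higher and 5 lower, led by Ppih (1.68), Ppid (1.28) and Ppil1 (1.28), cyclophilins of the spliceosome or of chaperone complexes. The drug efflux pumps of the P-glycoprotein type were lower in the unconventional clone. Abcb1a, the first of the pair, differed by -1.17 ± 0.09 and Abcb1b by -0.66 ± 0.08. Other transporters went either way, with Abcc4 at 1.52, Abca7 at 1.16, Abcb6 at 1.09 and Abcd3 at -0.87. Across the 40 transporters and drug metabolism genes 10 were called higher and 12 lower, and the sign of their median depended on the scaling of the arrays.

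**Figure D2:**
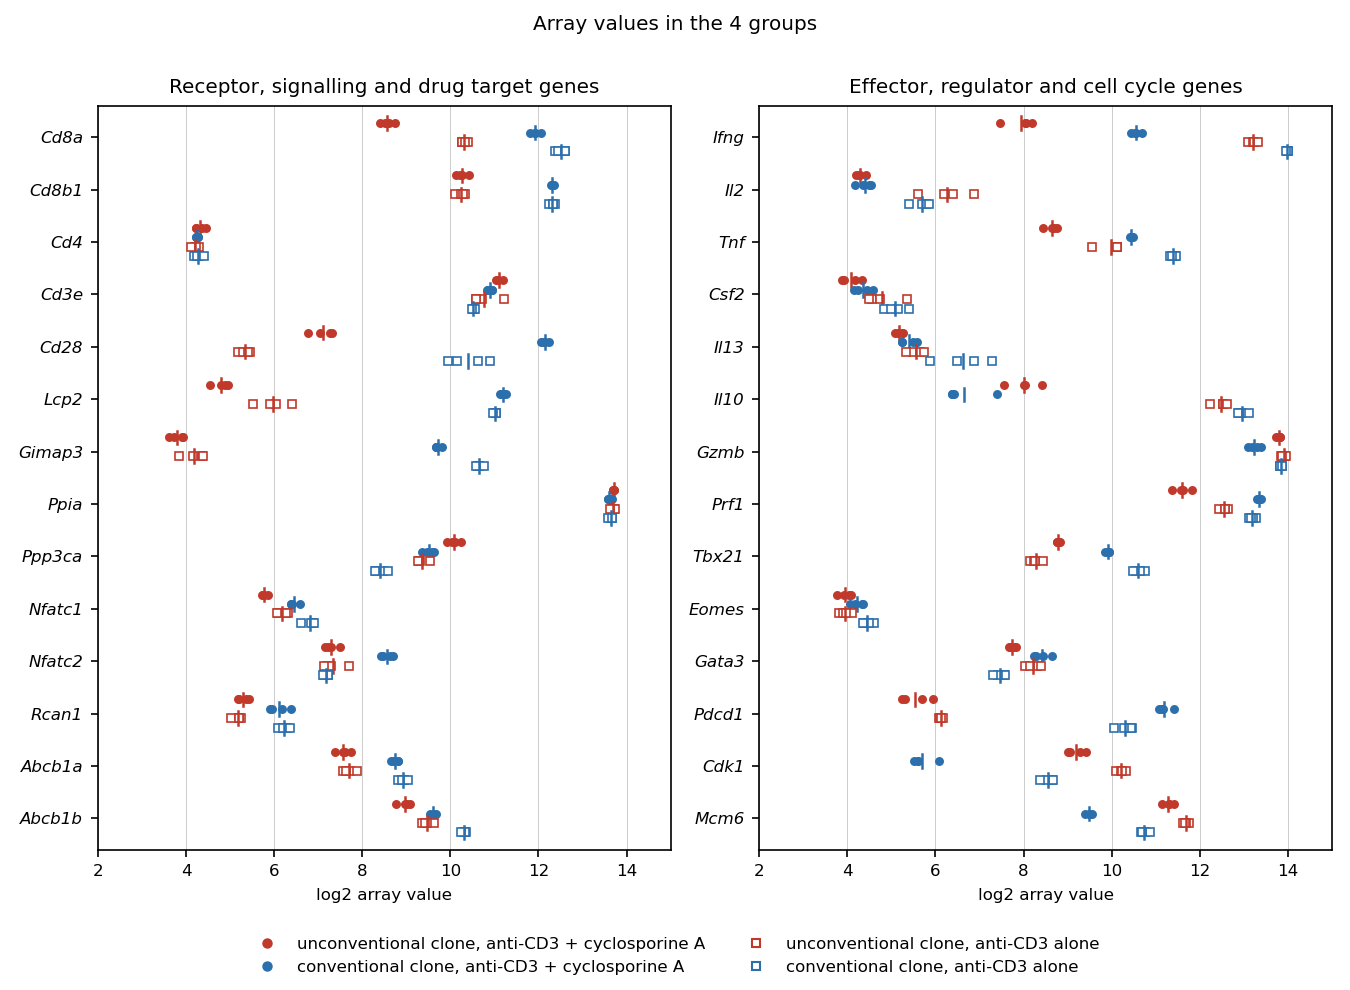
Log2 expression values on the horizontal axis for 28 genes in all 4 groups, 1 point per array and 4 arrays per group. Genes of the receptor pathway, the drug target and the efflux pumps are in the left panel and effector, fate and cell cycle genes in the right. Lcp2, Cd28 and Gimap3 keep the clones apart with and without the drug. Ifng and Cdk1 separate them more clearly with it, and the Il10 difference has opposite signs with and without it.

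Among secreted effectors, the conventional clone held more Ifng and Tnf RNA under the drug and the unconventional clone more Il10. Ifng, the interferon of type 1 responses, read 7.47, 8.05, 8.03 and 8.19 in the unconventional clone and 10.55, 10.69, 10.44 and 10.52 in the conventional clone, a difference of -2.62 ± 0.11 (SE, adjusted p = 1.09e-13). Tnf read 8.45, 8.76, 8.68 and 8.65 against 10.46, 10.43, 10.42 and 10.49 (-1.81 ± 0.10). Il10, an inhibitory cytokine, read 8.02, 7.56, 8.02 and 8.42 against 6.43, 6.37, 6.38 and 7.40 (1.36 ± 0.19). For all 3 the clones did not overlap, although 1 conventional array of Il10 came close. Il2, the T cell growth factor, lay at 4.29 and 4.39, Csf2 at 4.08 and 4.35 and Il13 at 5.18 and 5.39, and these 3 were not called. Lta, a relative of Tnf, was lower (-0.97) and Tgfb3 higher (3.62). Over the 34 cytokines 4 were called higher and 5 lower, or 26.5% of the list, below the 44.2% of all genes.

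Chemokines divided by gene. Ccl4, an inflammatory chemokine, read 6.31, 7.15, 7.33 and 7.42 in the unconventional clone and 11.78, 11.51, 11.72 and 12.20 in the conventional clone, a difference of -4.75 ± 0.19 (SE). Ccl5, a chemokine made by effector T cells, ran the other way, at 11.94, 11.88, 11.90 and 11.87 against 9.25, 8.66, 9.39 and 10.06 (2.56 ± 0.19). No array overlapped for either gene, and Ccl5 was even across the unconventional arrays and spread across the conventional ones. Ccl3, also an inflammatory chemokine, was lower (-1.92), and the neutrophil attractants Cxcl3 (1.65) and Cxcl2 (0.99) were higher. In all, 5 of 29 chemokines were called higher and 3 lower (27.6% together, below the 44.2% of all genes).

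Homing and adhesion genes differed in both directions. Itga1 and Itga2, the collagen-binding alpha chains, differed by -8.35 and -4.75, and Itgae, the alpha E chain that pairs with beta 7 and binds E-cadherin, by 4.52. Itgae read 10.02, 9.99, 10.17 and 10.20 in the unconventional clone and 5.56, 5.66, 5.39 and 5.69 in the conventional clone. Itgb7, its partner, read 10.87, 10.97, 10.91 and 10.87 against 6.01, 5.35, 6.0 and 5.52. Both chains of this integrin were thus high in the unconventional clone and near the array median in the other. Of 39 integrin and adhesion genes, 12 were called higher and 11 lower, 9 and 5 at 2-fold or more, a share of 35.9% at 2-fold. Among the 30 chemokine and egress receptors, 6 were called higher and 8 lower. Gpr15, a homing receptor of the gut (4.34), Gpr183, which senses oxysterols (2.93), and S1pr3, a sphingosine phosphate receptor (3.02), were higher. Cxcr3 (-3.82), Ccr2 (-2.46) and Cxcr6 (-1.96), receptors of inflamed tissue, were lower.

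Receptors of NK cells, which many activated CD8 T cells also carry, were more often lower in the unconventional clone, with 20 of 40 called lower and 7 higher and a median of -0.26. Klrg1, an inhibitory receptor of effector cells, read 7.17, 7.37, 7.50 and 7.78 against 12.36, 12.46, 12.46 and 12.51 (-4.99 ± 0.14). Klri2 (-5.57), Klra5 (-5.41), Lilrb4a (-4.21), Lilr4b (-4.11) and Crtam (-3.76) followed. Ly49 and LILR-type receptors belong to families of similar sequence, so single members such as Klra5, Lilrb4a and Lilr4b are uncertain where probes match relatives. In the SLAM family, whose receptors mostly bind their own kind, 2 of 12 were called higher and 7 lower, and Cd244a, or 2B4, was 3.59 higher while Cd84 differed by -1.83.

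Co-stimulatory and inhibitory receptors were called lower in 12 of 34 cases and higher in 6. Pdcd1, the inhibitory receptor PD-1, read 5.23, 5.32, 5.70 and 5.94 in the unconventional clone and 11.08, 11.41, 11.11 and 11.17 in the conventional clone, a difference of -5.65 ± 0.13 (SE, adjusted p = 7.82e-18). Cd28 read 7.26, 7.04, 6.77 and 7.32 against 12.06, 12.10, 12.16 and 12.24. Neither gene overlapped, and Pdcd1 lay near the array median in the unconventional clone. Cd69, an early activation antigen, differed by -1.77. Nt5e, or CD73, an enzyme that makes adenosine (4.77), Cd200 (3.38) and Ceacam1 (2.22), both inhibitory ligands, were higher. Among the TNF superfamily, 7 of 38 were called higher and 8 lower (39.5% together, below the 44.2% of all genes). Tnfrsf11b, a decoy receptor (2.71), Tnfrsf18, or GITR (1.39), and Tnfrsf10b, a death receptor (1.26), were at one end. Fasl (-1.95) and Tnfsf10, or TRAIL (-1.13), both death ligands, were at the other.

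The killing machinery was not uniformly shifted, with 8 of 35 granule genes called higher and 16 lower. Prf1, the pore-forming perforin, read 11.36, 11.58, 11.62 and 11.82 in the unconventional clone and 13.39, 13.37, 13.29 and 13.31 in the conventional clone (-1.75 ± 0.08), while Gzmb, the granzyme that starts apoptosis in targets, read 13.83, 13.81, 13.74 and 13.79 against 13.30, 13.08, 13.20 and 13.38 (0.55 ± 0.07). Both genes were thus near the top of the scale in both clones, with no overlap and with opposite signs. Gzmn (-3.43), Gzmc (1.83) and Nkg7, a granule membrane protein (-1.63), were also called. The clustered granzymes resemble each other in sequence, and cross-reading between Gzmc and Gzmn was not tested.

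Cytokine receptors were called lower in 20 of 48 cases and higher in 8. The chains of the IL-18 receptor parted: Il18r1 was 3.45 higher, at 7.12 against 3.67, and Il18rap differed by -1.85, at 8.87 against 10.72. Il7r, the receptor of a survival cytokine that was in the growth medium, differed by -1.35, and Il10ra by -1.91. Among JAK, STAT and SOCS genes 11 of 25 were called higher and 3 lower. Stat4, which relays IL-12, was 2.33 higher, and Cish, a feedback inhibitor, differed by -1.57.

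Transcription factors of T cell fate were called lower in 27 of 53 cases and higher in 13, a median of -0.18. Tbx21, or T-bet, read 8.76, 8.80, 8.76 and 8.83 in the unconventional clone and 9.94, 9.94, 9.92 and 9.86 in the conventional clone (-1.13 ± 0.07). Gata3 differed by -0.66 and Eomes, at 3.95 and 4.23, lay at the bottom of the scale in both. T-bet was clearly expressed in both clones and its arrays did not overlap. Rbpj, the DNA-binding partner of Notch (-3.43), Zeb2, a factor of terminal effector cells (-2.96), Hlx (-2.60) and Irf8 (-2.28) were lower. Ahr (5.13) and Tcf4, an E protein (3.28), were higher. A second probe set of Rbpj gave -1.58.

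The AP-1, MAPK feedback, EGR and NF-kB lists, whose members are not all induced by receptor signals, differed in how one-sided they were. In the AP-1, CREB and immediate early list 21 of 36 were called lower and 7 higher, with a median of -0.37. Fosb (-2.93), Atf6 (-2.56), Btg1 (-2.23), Zfp36l1 (-2.09) and Jun (-1.45) were the lower ones named, while Batf3 stood at 2.33. Feedback genes of the MAPK pathway were called lower in 17 of 33 cases and higher in 9. Dusp6, the phosphatase of ERK, read 6.82, 6.89, 6.91 and 6.94 against 11.66, 11.77, 11.67 and 11.62 (-4.79 ± 0.09). Dusp10 (-2.52), Spred2 (-2.15) and Dusp2 (-1.99) were lower and Spred1 higher (2.46). In the EGR, NR4A and anergy list 14 of 31 were called lower and 9 higher, among them Egr2 (-1.73) and Nr4a2 (-1.52), receptor-induced factors, and Dgka, the kinase that consumes diacylglycerol (-4.03). Rasgrp3, an activator of Ras, was 4.04 higher. NF-kB genes were called lower in 11 of 30 cases and higher in 9, with Tnip3 (-3.38), Nfkbiz (-1.41) and Bcl3 (-1.16) below and Traf5 (1.69) above.

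**Figure D3:**
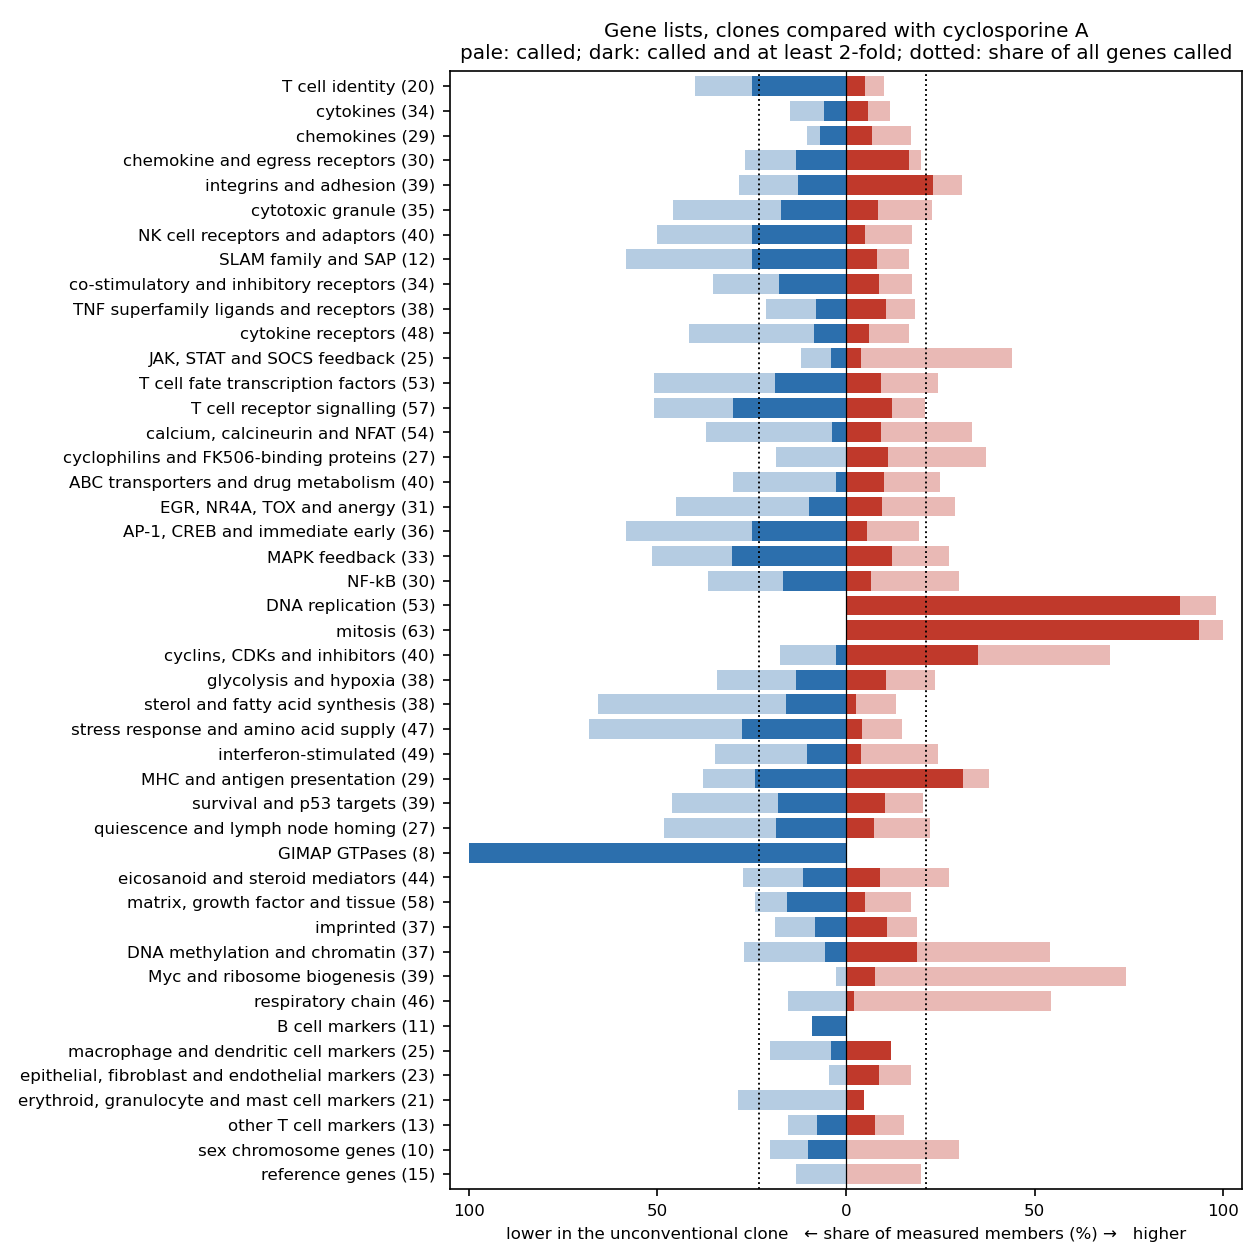
Share of the measured genes of each list, in percent on the horizontal axis, that were called higher (right) and lower (left) in the unconventional clone under anti-CD3 with cyclosporine A, with the darker part at 2-fold or more and dotted lines at the shares of all genes, 21.3% higher and 23% lower. DNA replication and mitosis lie almost wholly on the higher side and the GIMAP genes wholly on the lower side.

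Genes of the dividing cell were mostly higher in the unconventional clone. Of 53 measured DNA replication genes, 52 were called higher in the unconventional clone, 47 of them at 2-fold or more, with a median difference of 2.24. Of 63 mitosis genes, 63 were called higher, 59 at 2-fold or more, with a median of 2.74, against -0.083 over all genes. Cyclins, kinases and their inhibitors were called higher in 28 of 40 cases and lower in 7.

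Mcm7, a subunit of the replicative helicase, read 10.48, 10.35, 10.70 and 10.60 in the unconventional clone and 6.55, 6.68, 6.42 and 6.77 in the conventional clone, a difference of 3.92 ± 0.10 (SE, adjusted p = 2.79e-17). Bub1, a kinase of the spindle checkpoint, read 8.0, 7.91, 8.57 and 8.35 against 3.84, 3.52, 3.74 and 3.80 (4.48 ± 0.14). Ccna2, the cyclin of S and G2 phase, read 9.53, 9.5, 10.15 and 9.58 against 5.30, 4.81, 4.48 and 5.24 (4.73 ± 0.16). These genes were near or below the array median on every conventional array except for Mcm7, and well above it on every unconventional array. Further replication genes were Exo1, a repair nuclease (3.97), Pole, a DNA polymerase subunit (3.95), Mcm10 (3.42), Uhrf1, which guides maintenance methylation (3.41), and Brca1 (3.4). Further mitotic genes were Cenph (4.31) and Nuf2 (4.29) of the kinetochore, Ncapg2 of condensin (3.83), Prc1 of the spindle midzone (3.76) and Cdca5, or sororin (3.76). Ccne2 (4.22) and E2f8 (3.14), which act around S phase, and Ccnd1, a cyclin of G1 (2.73), were higher as well.

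The inhibitors of cyclin-dependent kinases at the Cdkn2a locus were higher too. Cdkn2a, the locus of p16 and p19ARF, read 10.66, 10.58, 9.79 and 10.41 in the unconventional clone and 6.18, 5.88, 6.57 and 6.22 in the conventional clone, a difference of 4.15 ± 0.16 (SE, adjusted p = 3.86e-14). Cdkn2b, which encodes p15, read 9.48, 9.52, 8.89 and 9.21 against 6.31, 5.69, 6.51 and 6.14 (3.11 ± 0.15). Arrays did not overlap for either. The clone with more RNA of cyclins and mitotic genes thus also held more RNA of this inhibitor locus, and its neighbours Mtap (1.90) and Mir31 were higher with it.

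Because replication and mitotic genes differed together, their promoters are shown with the motifs known for cell cycle control: the E2F motif of S phase genes, the CHR of mitotic genes and the CCAAT box bound by NF-Y. Motifs were searched on both strands as TTTCCCGC, TTTCGCGC, TTTGCCGC or TTTGGCGC for E2F, as TTTGAA or TTCGAA for CHR, and as CCAAT. The windows are the 250 bases upstream of the annotated start, from RefSeq on GRCm38.p6, 5′ to 3′ on the strand of the gene, and were picked by their motifs and the size of the difference. Capitals mark the E2F motif and CCAAT in Rfc3 and Mcm6, and the CHR and CCAAT in Kif11 and Cdk1, while a CHR in Rfc3 and an E2F motif in Cdk1 are left in lower case.
Rfc3 (chr5:151651209-151651458, minus strand): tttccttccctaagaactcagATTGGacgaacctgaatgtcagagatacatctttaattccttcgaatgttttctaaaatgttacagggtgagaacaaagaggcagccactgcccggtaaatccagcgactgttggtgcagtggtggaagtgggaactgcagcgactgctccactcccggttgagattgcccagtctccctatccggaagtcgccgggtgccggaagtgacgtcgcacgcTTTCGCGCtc
Mcm6 (chr1:128359706-128359955, minus strand): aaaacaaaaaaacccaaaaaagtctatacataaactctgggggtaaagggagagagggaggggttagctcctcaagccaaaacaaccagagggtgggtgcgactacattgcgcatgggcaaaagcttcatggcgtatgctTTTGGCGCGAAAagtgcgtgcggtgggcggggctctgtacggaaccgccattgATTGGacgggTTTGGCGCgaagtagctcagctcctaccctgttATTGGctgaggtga
Kif11 (chr19:37376132-37376381, plus strand): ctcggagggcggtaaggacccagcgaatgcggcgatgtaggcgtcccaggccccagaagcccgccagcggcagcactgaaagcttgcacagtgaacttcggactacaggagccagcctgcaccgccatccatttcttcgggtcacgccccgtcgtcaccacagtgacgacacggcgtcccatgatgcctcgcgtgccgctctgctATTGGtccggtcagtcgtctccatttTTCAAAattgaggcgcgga
Cdk1 (chr10:69352913-69353162, minus strand): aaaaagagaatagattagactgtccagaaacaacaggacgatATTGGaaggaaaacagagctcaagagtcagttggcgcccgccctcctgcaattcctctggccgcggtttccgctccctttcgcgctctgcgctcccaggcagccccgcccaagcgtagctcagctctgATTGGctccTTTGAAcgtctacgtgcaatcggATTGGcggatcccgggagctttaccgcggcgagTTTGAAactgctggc
In the Mcm6 window 1 E2F match runs into another on the opposite strand, so that their capitals join. An E2F match was present in 20.4% of the 49 windows of the DNA replication list (43 genes matched), in 8.2% of the 61 windows of the mitosis list (55 genes) and in 2.46% of the 19116 windows of all measured genes. The CHR was present in 14.3%, 42.6% and 14.8%, and CCAAT in 59.2%, 70.5% and 34.6% of the same sets. The replication list thus held the E2F motif and the mitosis list the CHR at a larger share than all windows. In the T cell receptor signalling list, 0 of 70 windows held the E2F motif, 12.9% the CHR and 28.6% CCAAT. A match describes letters in a window and is not evidence of binding.

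Of the printed genes, Mcm6, another helicase subunit, read 11.30, 11.14, 11.41 and 11.30 in the unconventional clone and 9.5, 9.51, 9.39 and 9.55 in the conventional clone (1.80). Cdk1, the kinase of mitotic entry, read 9.04, 9.0, 9.43 and 9.29 against 5.61, 5.51, 5.61 and 6.08 (3.49). Rfc3, of the clamp loader, was 2.52 higher and Kif11, the spindle motor, 3.57 higher. Mcm6 was thus abundant in both clones, while Cdk1 was near the array median in the conventional clone. These 4 genes were named for their promoters and not by the size of their difference alone.

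Growth-related genes differed in the same direction by less. Of 39 Myc and ribosome biogenesis genes, 29 were called higher and 1 lower, 3 of them at 2-fold or more, with a median of 0.34; Noc4l (1.42), Fbl, the methylase of ribosomal RNA (1.09), and Nhp2 (1.02) were the 3. Of 46 respiratory chain genes, 25 were called higher and 7 lower with a median of 0.22, and Tfam, a factor of mitochondrial DNA, was the one at 2-fold (1.17). DNA methylation and chromatin genes were called higher in 20 of 37 cases and lower in 10. Hmgb2 (3.19), Dnmt1, the maintenance methyltransferase (1.80), Tet2 (1.67) and Ezh2 (1.42) were higher and Kdm5b, a histone demethylase, was lower (-3.37).

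Sterol and lipid supply and stress genes were mostly lower in the unconventional clone under the drug. Of 38 sterol and fatty acid synthesis genes, 25 were called lower and 5 higher, with a median of -0.38. Insig1, a feedback regulator of the sterol sensor, read 10.48, 10.55, 10.22 and 10.49 against 12.05, 12.13, 11.94 and 12.14 (-1.63 ± 0.10), and Cyp51 (-1.33) and Sc5d (-1.21), enzymes of cholesterol synthesis, and Fads1 (-2.42) and Elovl6 (-1.57), which lengthen and desaturate fatty acids, were lower. Scd1, at 6.69, was the one member higher at 2-fold. With anti-CD3 alone 11 members were called higher and 9 lower, with a median of 0.01, and the change with the drug was called for 23 of the 38. Of 47 stress response and amino acid supply genes, 32 were called lower and 7 higher, with a median of -0.65. Sesn2, a sestrin induced by stress (-2.47), Gclm, of glutathione synthesis (-2.85), Osgin1 (-2.37), Trib3 (-2.06) and Ddit3, or CHOP (-1.89), were lower, and Dnajb9, a chaperone of the endoplasmic reticulum, was higher (3.45). Glycolysis and hypoxia genes were divided, 9 of 38 called higher and 13 lower, with the glucose transporters Slc2a3 (-2.41) and Slc2a1 (-1.74) and with Vegfa (-1.55) lower and Pfkfb4 higher (1.53).

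Antigen presentation was divided within its list. Of 29 genes 11 were called higher and 11 lower, 9 and 7 at 2-fold or more. Among the class II genes some were higher in the unconventional clone and others were not called. H2-Aa, a class II alpha chain, read 7.67, 8.15, 8.22 and 8.47 against 3.87, 4.21, 4.22 and 4.14 (4.02 ± 0.17). Cd74, the invariant chain, read 9.93, 10.25, 10.11 and 10.35 against 4.33, 4.41, 4.16 and 4.61 (5.78 ± 0.11). All conventional arrays lay at the bottom of the scale for both. Ifi30, a lysosomal reductase of the same pathway (5.87), H2-Ab1 (2.58) and H2-Eb1 (2.33) were higher. Ciita, the master regulator of class II genes (-0.04, adjusted p = 0.7814), and H2-DMa, of peptide loading (-0.05, adjusted p = 0.7314), both named after their values were seen, were not called, and H2-T24, a class I-like gene, was lower (-2.56). Professional antigen-presenting cells also express class II genes, and the markers of B cells, macrophages and dendritic cells were as given above. Interferon-stimulated genes were called higher in 12 of 49 cases and lower in 17, with Isg20 (-3.36) and Ddx58, or RIG-I (-1.97), lower and Ly6e higher (4.45). Irf1 was 1.80 higher with the probe set used, and another probe set of Irf1 gave -0.02, so its direction is uncertain.

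Survival and p53 target genes were called lower in 18 of 39 cases and higher in 8. Bcl2, which opposes apoptosis, read 6.78, 6.93, 6.79 and 6.73 in the unconventional clone and 8.61, 9.01, 8.75 and 8.72 in the conventional clone (-1.96 ± 0.15), with no overlap. Pmaip1, or Noxa, which promotes it (-1.95), Cflar, an inhibitor of death receptors (-1.92), and Phlda3 (-2.52) were lower as well, and Sesn1 was higher (1.58). Quiescence and lymph node homing genes were called lower in 13 of 27 cases and higher in 6, with Tsc22d3 (-1.5) below and Ccr7, the homing receptor of lymph nodes, above (1.29).

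In the eicosanoid and steroid list 12 of 44 were called higher and 12 lower (54.5% together, beside 44.2% of all genes). The enzymes Pla2g4a and Hpgds were higher, and Cysltr1, the receptor of cysteinyl leukotrienes (-5.39), Ltb4r1, a leukotriene B4 receptor (-2.04), Ptger2, a prostaglandin receptor (-1.23), and Hsd11b1, which activates glucocorticoids (-4.11), were lower. In the matrix, growth factor and tissue list 10 of 58 were called higher and 14 lower (41.4% together). The casein genes of milk named here were lower, Csn2 (-3.96), Csn3 (-2.84) and Csn1s1 (-2.48), and Csn3 read 8.37, 8.42, 8.41 and 8.49 against 11.20, 11.36, 11.17 and 11.34. Csn3 RNA was thus above the array median in both clones. Pdgfb, a platelet-derived growth factor chain, was 2.04 higher.

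Imprinted genes, of which a cell normally reads 1 parental copy, were called higher in 7 of 37 cases and lower in 7. Together these were 37.8% of the list, below the 44.2% of all genes. Mest read 10.12, 10.17, 10.06 and 10.51 in the unconventional clone and 4.28, 4.21, 4.23 and 3.98 in the conventional clone (6.04 ± 0.13). Peg10 (5.84) and Sgce (5.1), which lie side by side, were higher together with their neighbour Casd1 (1.82), and Impact was 2.16 higher. Igf2, a growth factor (-1.70), and Igf2r, its clearance receptor (-1.46), were lower. Mest, Peg10 and Sgce were at or near the bottom of the scale in the conventional clone.

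In 20 runs of 3 or more adjacent measured genes, 11 higher and 9 lower, every gene was called at 2-fold or more in 1 direction. Over all genes 5.57% were called higher and 4.27% lower at this bound. Some short runs can arise without any clustering, and their expected number was not computed. The runs held 71 genes. The longest was the GIMAP cluster on chromosome 6, GTPases of lymphocyte survival, in which all 8 measured members were lower, by a median of -3.65. Gimap3 read 3.61, 3.93, 3.72 and 3.92 in the unconventional clone and 9.67, 9.70, 9.68 and 9.81 in the conventional clone (-5.92 ± 0.10), and Gimap4 (-5.0), Gimap9 (-4.61), Gimap7 (-3.70), Gimap8 (-3.60), Gimap6 (-2.86), Gimap5 (-2.46) and Gimap1 (-1.41) were lower with it. Gimap3 was at the bottom of the scale in the unconventional clone, whereas Gimap1, at 8.95, was well expressed in it. With anti-CD3 alone all 8 were lower as well, by a median of -2.91. The Mir17 cluster and a run of Mzt1 (1.04), Bora (2.34), Dis3 (2.33) and Pibf1 (1.28) lie on chromosome 14, and Uggt1 (-1.26), Neurl3 (-6.22), Arid5a (-3.24) and Kansl3 (-1.14) on chromosome 1. The other named runs were Mir31, Mtap, Cdkn2a and Cdkn2b on chromosome 4, Gem, Cdh17 (-4.56) and Pdp1 (-2.26) also on chromosome 4, Zfp280d (3.71), Mns1 (1.67), Tex9 (1.2) and Rfx7 (1.2) on chromosome 9, and Casd1, Sgce and Peg10 on chromosome 6. Genes of a run can share a region, so their differences are not independent of each other.

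Chromosomes 14 and 1 had the highest and the lowest median difference between the clones. Over the 9969 genes whose mean over all arrays was above the median gene, the median difference was 0.03, with 38.5% called higher and 30.7% lower. On chromosome 14 it was 0.46 over 349 such genes, of which 223 (63.9%) were called higher and 54 (15.5%) lower. On chromosome 1 it was -0.27 over 572 genes, with 120 (21%) called higher and 309 (54%) lower. The other 18 chromosomes lay between -0.1 and 0.29, with X at 0.29. On X 148 of 280 such genes (52.9%) were called higher and 63 (22.5%) lower, so its shift with the drug was similar in size to that of chromosome 1.

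The shift of chromosomes 14 and 1 was visible on each array. The median deviation of chromosome 14 genes from their means was 0.23, 0.251, 0.238 and 0.231 on the unconventional arrays and -0.249, -0.174, -0.292 and -0.247 on the conventional ones. For chromosome 1 it was -0.164, -0.171, -0.154 and -0.131 against 0.15, 0.197, 0.177 and 0.143. No array crossed to the other side of 0. Along chromosome 14, cut into 5 equal parts by gene order, the medians were 0.49, 0.42, 0.55, 0.19 and 0.75, and along chromosome 1 they were -0.27, -0.25, -0.24, -0.37 and -0.38, so every part had the sign of its chromosome. With anti-CD3 alone they were 0.47 and -0.28. Under 3 other scalings of the arrays they ran from 0.4 to 0.48 and from -0.35 to -0.26. The pattern was noticed in the data, and no test of it was made.

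**Figure D4:**
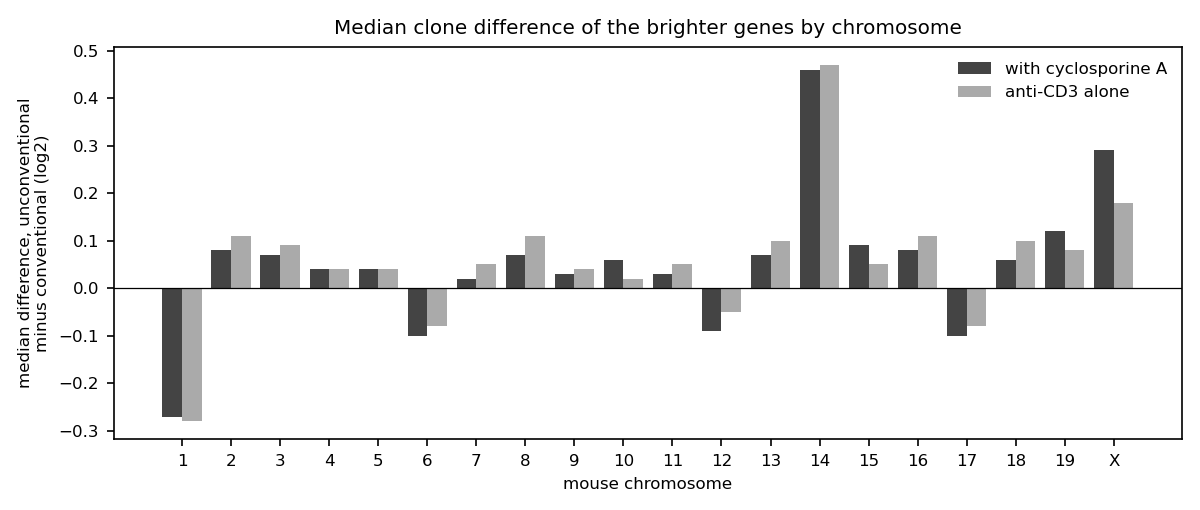
Median difference between the clones in log2 units, on the vertical axis, for the brighter genes of each chromosome, with bars for anti-CD3 with cyclosporine A and for anti-CD3 alone. Chromosome 14 stands highest at 0.46 and 0.47 and chromosome 1 lowest at -0.27 and -0.28.

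The arrays with anti-CD3 alone show which of these differences depended on the drug. There 8376 genes were called between the clones (42%), 4048 higher (20.3%) and 4328 lower (21.7%), and 1543 of them at 2-fold or more (7.74%). Across the 19938 genes the differences with and without the drug correlated at r = 0.86 and rho = 0.709, a description over genes that are not independent and whose 2 sets of arrays share a platform and the estimate of spread. Of the 1961 genes called at 2-fold with the drug, 1852 were called in the same direction without it, 17 in the opposite direction and 92 were not called. The change of the clone difference itself was called for 3247 of all genes (16.3%). Among the 1961 it was called for 1115, and the difference was larger with the drug for 982 of them and smaller for 133, but the arrays with the drug both chose these genes and enter the change.

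DNA replication and mitosis differed without the drug too, and less. With anti-CD3 alone 53 of 53 replication genes were called higher, with a median of 1.43, and 62 of 63 mitosis genes were called higher and 1 lower, with a median of 1.83. The change with the drug was called for 34 replication and 42 mitosis genes. Mcm7 differed by 3.92 with the drug and 1.52 without it, a change of 2.41 (adjusted p = 2.89e-10), and its means without and with the drug were 9.53 and 6.61 in the conventional clone and 11.05 and 10.53 in the unconventional clone. Uhrf1 (change 2.58), Ccna2 (2.69), Ccne2 (2.67) and Pclaf, a clamp-associated factor (2.91), also had larger differences with the drug.

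The largest negative change belonged to Pfpl. It read 3.62, 3.64, 3.78 and 4.13 in the unconventional and 4.07, 4.29, 4.17 and 4.41 in the conventional clone without the drug, and with it the conventional arrays were at 9.87, 9.81, 9.59 and 9.84 while the unconventional ones stayed at 3.82 to 4.17. The clone difference thus went from -0.44 to -5.83, a change of -5.38 ± 0.16 (SE, adjusted p = 4.49e-14). In this gene the conventional arrays of the 2 treatments lay apart and the unconventional ones overlapped. Hsd11b1 (change -3.34), Ubash3b (-3.32), Osgin1 (-2.89), Gem (-2.70), Rbpj (-2.51) and Dok2 (-2.47) changed in the same direction.

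At the other end, Tnfsf4, or OX40 ligand, read 7.56, 7.68, 7.39 and 7.59 in the conventional clone without the drug and 4.03 to 4.14 with it, and 4.08 to 4.70 on the unconventional arrays of either treatment. Its clone difference went from -3.08 to 0.30, a change of 3.38 ± 0.14 (adjusted p = 8.24e-12). Ambn (change 3.34) and Fat1 (3.17) did likewise, with levels at the bottom of the scale in both clones under the drug. Tent5c (2.97) and Xylt1, of proteoglycan synthesis (3.08), had lower conventional levels with the drug, and for Xylt1 the unconventional mean was higher with it, 8.68 against 6.92. Mest differed the other way round: its conventional level stayed near 4 and its unconventional mean was 6.88 without and 10.21 with the drug, a change of 3.26 ± 0.18. Tm4sf1 was 10.47 in the unconventional clone without the drug and 6.33 with it, against 4.92 and 4.95 in the conventional clone, so its difference of 5.55 became 1.38. Lower conventional, higher unconventional and lower unconventional levels with the drug thus all occurred among the largest changes, as did a higher conventional level for Pfpl.

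Effector genes also changed in their clone difference. Ifng with anti-CD3 alone read 13.09, 13.21, 13.23 and 13.32 in the unconventional clone and 14.01, 13.99, 13.99 and 13.95 in the conventional clone, a difference of -0.77 that became -2.62 with the drug (change -1.85 ± 0.16, adjusted p = 5.9e-08). Il10 read 12.23, 12.54, 12.52 and 12.61 against 12.95, 12.89, 12.87 and 13.12 without the drug, so its sign turned, from -0.49 to 1.36. Ccl5 differed by -0.16 without the drug (adjusted p = 0.5268) and 2.56 with it. Nfatc2 differed by 0.15 without the drug (adjusted p = 0.2652) and -1.26 with it, and Gata3 by 0.75 and -0.66. Cd8a moved from -2.19 to -3.36, with unconventional means of 10.31 and 8.56. By contrast, for Tnf (change -0.39), Cd28 (0.04), Ppp3cb (-0.15), Abcb1a (0.06) and Scin (-0.02) the change did not pass the test, which does not show that their clone differences were equal.

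**Figure D5:**
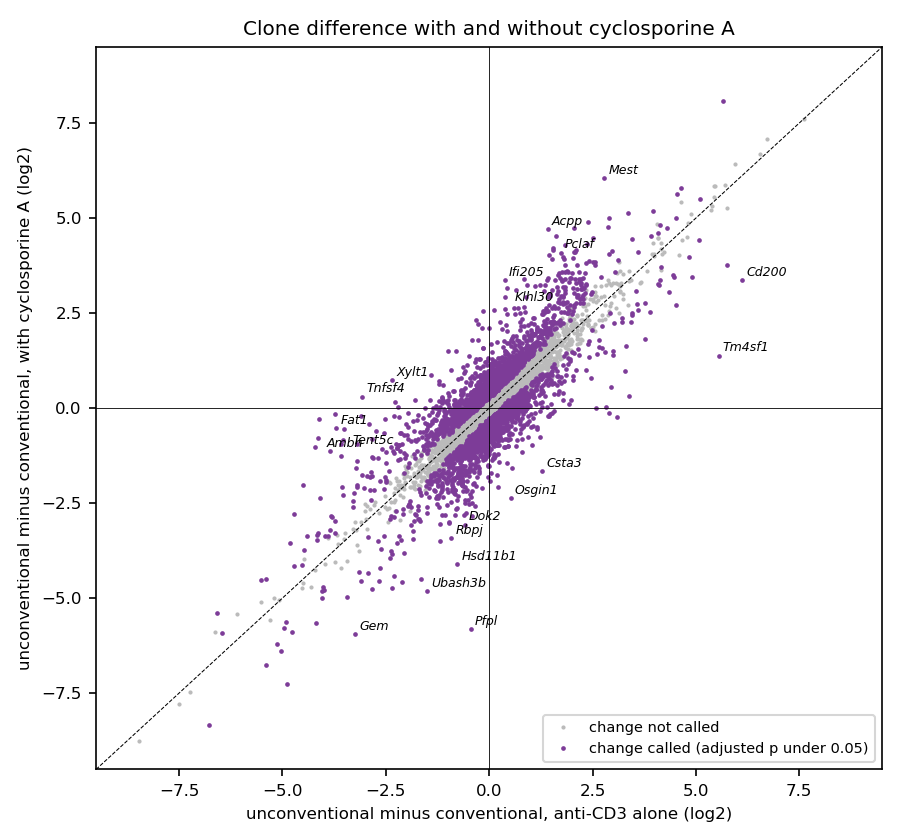
Difference between the clones for each of the 19938 genes with anti-CD3 alone (horizontal axis) and with cyclosporine A added (vertical axis), both in log2 units, with the 3247 genes whose change was called in purple and the genes with the largest changes labelled. Most points lie along the diagonal, while Pfpl lies far below it and Tnfsf4, Ambn and Mest above it.

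Among 15 reference genes 3 were called higher and 2 lower. Gusb was the furthest (0.93), followed by Hprt (0.42) and Tubb5 (-0.35), and Actb, actin beta, differed by -0.17, at 13.99 ± 0.01 (SD, n = 4) against 14.15 ± 0.02. Differences of this size are thus reached by genes often taken as stable.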

How the data were processed

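RNA of 16 samples, 4 per group, was hybridised to Affymetrix whole-transcript arrays, and the authors deposited log2 expression values per probe set, a scale inferred from their range. Per the submitters' processing notes, the deposited log2 values were made with GCOS, Partek 6.2 and RMA, in an order that is not stated, and RMA corrects background, normalizes arrays by quantiles and summarises probes, so a shift of most transcripts together would not show. For the genome build and the annotation, nothing is stated in the sources used here. Arrays hold no counts, so the number of arrays limits the precision.

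Of 28853 probe sets, 21789 had 1 gene symbol, 1621 several and 5443 none. Entrez IDs matched the gene table of GRCm38.p6 for 99.58%. Genes with several probe sets (999) were read from their brightest probe set on average, which left 19938 genes with no filter on dim ones.

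With limma 3.58.1 (R 4.3.3, statmod 1.5.0), 1 mean for each group was estimated over the 16 arrays, with empirical Bayes moderation and 12 residual degrees of freedom. The contrasts were the clones with cyclosporine A, the clones with anti-CD3 alone, and the change between both. Tests were two-sided, with Benjamini-Hochberg adjustment over all genes. The steps were checked on simulated data.

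The 45 gene lists name 1611 genes, of which 1480 were measured, and they were described by counts and medians with no test of a list. Comparison, lists and rules were chosen with earlier results of these data known. Named genes were the 20 largest differences each way without overlap of arrays, up to 6 called members of each list, receptor segments, the 10 largest changes each way, up to 8 runs of neighbours and 25 fixed genes; receptor segments and provisional symbols were kept out of the largest differences and changes. Alternatives were leaving out each array, median centring, quantile and cyclic loess normalization, array weights, variance trends, the mean of probe sets, brighter genes only, the 8 compared arrays only, an adjusted p under 0.01 and the replicate number as a block.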

Additional observations from a re-analysis of the deposited data

Results flagged for a closer look

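Among 82 genes checked in the 164 groups of 4 arrays, 5 had 1 array set apart from the other 3, while chance alone sets 1 apart in about 1 of 20 groups. In the unconventional clone with the drug Scin had a highest array of 12.34, the others being 12.19 to 12.20, Crmp1 a highest array of 5.24, the others 4.59 to 4.69, and Car5b a lowest array of 3.76, the others 3.97 to 4.00. In the conventional clone with the drug Trbv1 had a lowest array of 13.51, the others 13.58 to 13.59, and Il10 a highest array of 7.40, the others 6.37 to 6.43. The set-apart arrays of Scin, Car5b, Crmp1 and Trbv1 lay far from the other clone, and that of Il10 lay just below the lowest array of the unconventional clone.

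For 29 of 65 genes checked, the clone difference changed with the drug by the limma test of the change (difference with cyclosporine A minus difference with anti-CD3 alone, adjusted over all genes). The same change was called for 16.3% of all genes and for 56.9% of those called at 2-fold or more with the drug. Most of the 65 had been picked for a large difference on the arrays with the drug. Those arrays also enter the change, which favours differences that are larger with the drug. Among genes higher in the unconventional clone with the drug, the change was positive for Mest (3.26), Adh1 (2.42), Il10 (1.84), Ahr (1.77), Itgb7 (1.23), Cd74 (1.14), St3gal6 (1.08), Gzmb (0.50) and Foxp2 (0.41), so all these differences were larger with the drug or, for Il10, of the opposite sign. Among genes lower there with the drug, it was negative for Pfpl (-5.38), Gem (-2.70), Fgl2 (-2.35), Ifng (-1.85), Itga1 (-1.58), Pdcd1 (-1.46), Gata3 (-1.42), Nfatc2 (-1.41), Sema3d (-1.37), Lcp2 (-1.35), Cd8a (-1.17), Prf1 (-1.11), Crmp1 (-1.11), Neurl3 (-1.09), Taf9b (-0.82) and Adgrg7 (-0.70). It was positive, the lower level in the unconventional clone being closer to the other clone with the drug, for Tbx21 (1.21), Cysltr1 (1.2), Il13 (0.87) and Gimap3 (0.55). Their adjusted p ran from 4.49e-14 for Pfpl to 0.032 for Il13. The Il13 difference itself was not called with the drug.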

How the results depend on the processing

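Counts of called genes between the clones with cyclosporine A ran from 8043 to 9258 when each array was left out and from 6955 to 9593 under the other alternatives, against 8821. Those with anti-CD3 alone ran from 7485 to 8569 and from 6371 to 8708, against 8376. For the change of the clone difference the ranges were 2931 to 3386 and 2155 to 3579, against 3247, and the lowest, 2155, came with an adjusted p under 0.01. With the drug 48.1% of called genes were higher in the unconventional clone, against 52.1% with cyclic loess (4206 higher, 3865 lower), 55.2% with brighter genes only (4089 and 3318), 53.7% at an adjusted p under 0.01 (3736 and 3219) and 50.1% with median centring. Of the counts with anti-CD3 alone 48.3% were higher in the unconventional clone, and with median centring 58.8% (4316 higher, 3025 lower). The median of all differences with the drug, -0.083, became -0.071 with centring, -0.028 with quantile and -0.009 with cyclic loess normalization, and the sign of the list median turned under a scaling for ABC transporters, B cell markers, chemokines, epithelial markers, glycolysis, reference and sex chromosome genes. Of 315 named genes none changed direction, 16 changed side of the threshold under some alternative, and none of those at 2-fold or more lost its call. Same-numbered samples of different groups deviated together at r of -0.137 to 0.284, and differently numbered ones at -0.357 to 0.356. Within the unconventional clone, same-numbered samples of both treatments gave only positive r, 0.058 to 0.104, against -0.124 to 0.088 for differently numbered ones. Low r cannot exclude a shared culture, so whether the numbers pair samples was not decided. With the replicate block 8778, 8317 and 3229 genes were called. Of 13 named genes with a second probe set, 3 had one of opposite sign, Irf1 (-0.02), Ptpn2 (-0.17) and Ppia (-0.01, its other 5 being 0.04 to 0.10). Signal near the bottom of the scale limits every fold against it.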

Other observations

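Runs of neighbouring genes beyond those named above also divided the clones. On chromosome 3 the alcohol dehydrogenases Adh7 (1.54), Adh1 (8.08) and Adh6a (2.11) were higher together in the unconventional clone, and on chromosome 17 so were the class II genes. Histone genes of chromosome 13 were higher in 2 runs, H1f2 (1.11), H2bc3 (2.34) and H2ac4 (3.83), and H2bc14 (1.68), H2ac15 (1.98) and H1f5 (3.28), which are genes transcribed in S phase. Chromosome 14 held Pcca (1.96), Ggact (1.30) and Tmtc4 (1.87) and Tbc1d4 (1.12), Commd6 (1.33) and Uchl3 (2.15) as higher runs, and the serine proteases Prss55 (-2.31), Prss51 (-1.49) and Prss52 (-1.99) as a lower one. Scg2 (-2.14), Ap1s3 (-2.15) and Wdfy1 (-1.21) formed a lower run on chromosome 1. Histone and protease families hold similar sequences, so single members are uncertain.

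Probe sets that carry no single gene symbol were left out of the report. Of the 1621 with several symbols, 612 (37.8%) were called between the clones with the drug, 67 higher and 53 lower at 2-fold or more, and of the 5443 with no symbol 1332 (24.5%) were called, 98 higher and 84 lower at 2-fold or more. Xist, the RNA that silences an X chromosome, lay at 3.97 in the unconventional and 5.82 in the conventional clone, and the brighter genes of the X chromosome had a median difference of 0.29 with the drug and 0.18 without it.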
